A study of Mus musculus with 6 samples.

Results

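The genes described here make, cut or bind hyaluronan. They are the synthases Has1, Has2 and Has3, the hyaluronidases Hyal1, Hyal2 and Tmem2 (Cemip2 in the annotation used here), and the binding proteins Cd44, Vcan, Tnfaip6 and Hmmr. They were taken by symbol, with no threshold on their values, and all 10 have a row among the 24016 genes of the deposited table. The libraries come from MC3T3-E1 subclone 4 cells, a preosteoblast line from mouse calvaria labelled as wild type. Osteogenic medium was given for 6 days before treatment, with ascorbic acid at 50 μg/ml and β-glycerophosphate at 10 mM. One group (n = 3) received corticosterone at 100 nM over 24 h and the other received vehicle (n = 3), whose composition is not given. The labels name 10 nM calcitriol in the treatment medium and give the same text for every sample. All libraries are from 1 clonal line grown in culture, and the labels give passages 4 to 10 in one field and 6 to 12 in another. The study calls its libraries biological replicates, and the sources used here do not say how the cultures were separated, so p-values measure the spread between these samples.

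Hyaluronan is a long unbranched sugar polymer of the pericellular matrix. Unlike other glycosaminoglycans it is built at the plasma membrane, where a synthase joins UDP-glucuronic acid and UDP-N-acetylglucosamine and pushes the growing chain out of the cell. Hyaluronidases and related surface proteins cut the chain, CD44 holds it on the cell, and versican and the heavy chains that TSG-6 transfers onto it give the coat its structure. In bone, osteoblast-lineage cells and osteocytes carry such a coat.

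The vehicle libraries held 24337786, 25638645 and 19076586 reads counted on genes and the corticosterone libraries 18992332, 18259063 and 16020401, so every corticosterone library was shallower. The deposited values are reads per gene scaled by the authors with a size factor for each library, called normalized counts here, and 3 reads correspond to 2.32 to 3.84 normalized counts. This floor covers counting error only. The osteoblast genes Col1a1 and Sparc were abundant in every library. Of 9 osteoblast markers, 8 were lower with corticosterone at an adjusted p under 0.05, 4 of them also past a log2 fold change of -1, and 1 was higher. Among markers of other cell types, Fabp4, an adipocyte fatty acid carrier, rose from a mean of 14.8 to 121 (log2 fold change 3.05), while Plin1, which coats fat droplets, was at 0 to 2 reads. Of the macrophage and osteoclast markers, Csf1r and Cd68 stood between 15.0 and 33.2 in all libraries (log2 fold changes -0.47 and -0.05). Cd14 stood between 78.6 and 101.1 (log2 fold change 0.07). These were not called, while Ctsk was called lower (-0.36, adjusted p = 4.8e-06), and Acp5 had 0 to 4 reads. Of 6 adipocyte markers 2 had a row, and of 7 macrophage and osteoclast markers 5 had one. The part of these shifts in the results below was not tested. In whole-culture RNA, fewer cells of a type and less RNA per cell cannot be told apart.

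Of the 10 hyaluronan genes, 5 were lower with corticosterone at an adjusted p under 0.05 in limma and 0 were higher. The genes that fell were Has2, Tmem2, Tnfaip6, Cd44 and Hmmr. Over all genes tested, 17.6% were called by the same rule, 8.64% lower and 8.95% higher. Under it 50.9% of all calls were higher, and scaling the libraries to the same total gave 40.1%. No member was higher at an unadjusted p under 0.05 either, and edgeR and DESeq2 on the recovered reads also called 5 lower and 0 higher. In the same 5 genes every corticosterone library lay below every vehicle library, which was true of 14.9% of all genes, while 29.6% did not overlap in either direction. Has2 and Tmem2 also passed the study's threshold of an absolute log2 fold change over 1, which 1.51% of all genes passed downward and 1.47% upward. The median log2 fold change was -0.30 over the 10 genes and -0.01 over all genes. Of all 24016 genes, 3382 were under the floor in every library, while the 10 hyaluronan genes each had a mean of at least 10. The percentages over all genes can therefore understate the share among genes of similar level, which was not computed.

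**Figure D1:**
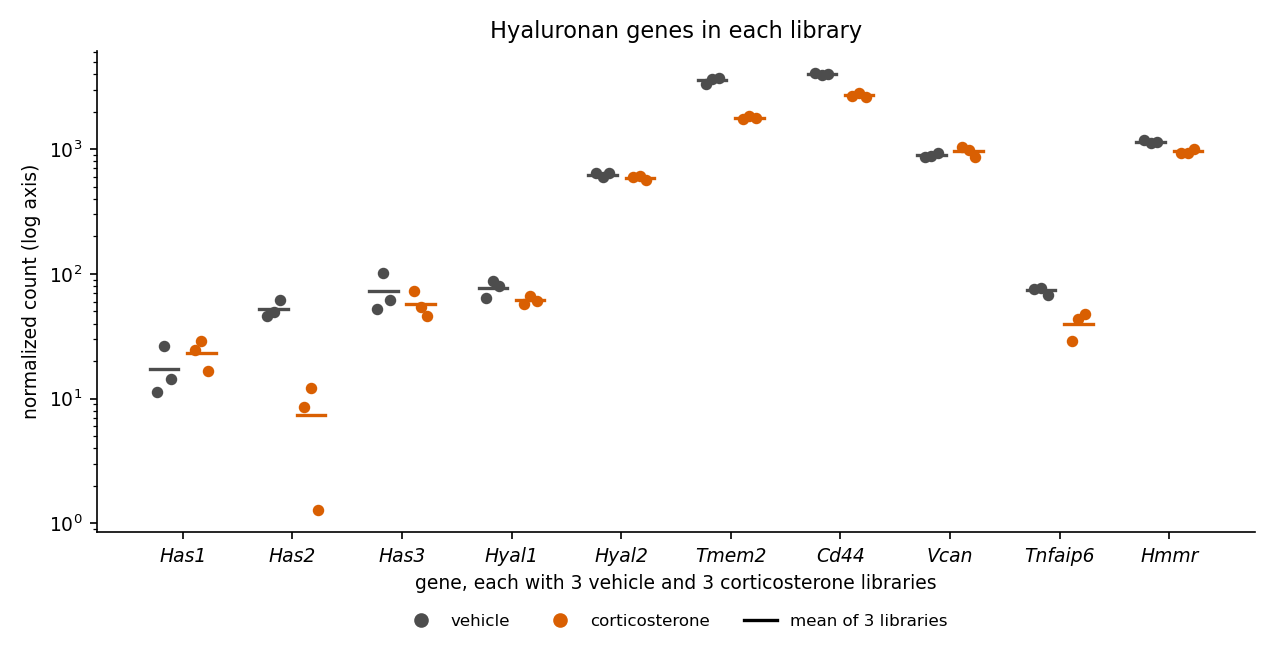
Normalized counts of the 10 hyaluronan genes on a log axis, with 1 dot per library and a line at the mean of 3 libraries, vehicle in grey and corticosterone in orange. The groups do not overlap for Has2, Tmem2, Cd44, Tnfaip6 and Hmmr. Has2 falls to between 1.28 and 12.1 with corticosterone.

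Of the synthases, Has2 passed the test and Has1 and Has3 did not. Has2, the enzyme needed for embryonic heart development and often the main one in mesenchymal cells, was reduced to 13.9% of its vehicle mean. Has2 (ENSMUSG00000022367) lies on chromosome 15 at 56665627-56694539 on the minus strand of GRCm38. Its normalized counts were 46.2, 49.4 and 62.1 with vehicle and 8.57, 12.1 and 1.28 with corticosterone. The highest corticosterone library was thus well under the lowest vehicle library. These values come from 57, 64 and 60 reads against 8, 11 and 1. The means were 52.6 ± 8.38 and 7.33 ± 5.54 (SD, n = 3), with a log2 fold change of -3.01 (SE 0.472, 95% confidence interval -3.98 to -2.04, adjusted p = 2.1e-05). Pooled over libraries, the depth-corrected vehicle level was 6.79 times the corticosterone level, with a counting interval of 4.27 to 11.4. The call was lost without any 1 of the vehicle libraries (adjusted p = 0.087 to 0.102) or without corticosterone library 1 (adjusted p = 0.055), although the log2 fold change stayed between -3.51 and -2.24. The library with a single read decided part of the size, since without corticosterone library 3 the log2 fold change was -2.24.

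Has1, which like Has2 adds sugars at the plasma membrane, was at 11.4, 26.2 and 14.5 with vehicle and 24.6, 28.7 and 16.6 with corticosterone. The groups overlapped, and the log2 fold change of 0.46 had an interval from -0.32 to 1.23 (adjusted p = 0.51). Has3, which makes hyaluronan on membrane protrusions, was at 52.7, 101.9 and 62.1 with vehicle and 72.8, 54.1 and 46.1 with corticosterone. Its log2 fold change was -0.29 with an interval from -0.77 to 0.19 (adjusted p = 0.51). Both genes had 13 to 132 reads per library, and in both the libraries of the groups overlapped. Of the 31-base stretches of Has3, 5.07% also occur in other genes, mainly Chtf8. Chtf8 lies on the opposite strand with exons that overlap those of Has3, and stood at a mean of 1995 and 2034. Since the use of strand in counting is not given, the Has3 level and the synthase shares are uncertain. Has1 lies on chromosome 17 (17843323-17855205, minus strand) and Has3 on chromosome 8 (106870242-106884566, plus strand).

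To compare the synthases with each other, normalized counts were divided by the length of the longest coding transcript in kilobases. On this scale the vehicle levels of Has2 (12.4 ± 1.98), Has3 (12.2 ± 4.42) and Has1 (8.29 ± 3.75) overlapped. With corticosterone Has1 stood at 11.1 ± 2.93, Has3 at 9.75 ± 2.32 and Has2 at 1.73 ± 1.31, so that Has2 was the lowest in every treated library. The share of Has2 in the summed synthase level was 43.2%, 28.1% and 45.7% with vehicle against 7.75%, 11.1% and 1.88% with corticosterone. Its mean moved from 39.0% ± 9.49 to 6.93% ± 4.69. The Has1 share was 24.4% ± 5.04 with vehicle and 49.3% ± 4.12 with corticosterone, although its own level did not differ beyond its spread. These shares depend on the length used. With the length of all exons the Has1 share was 13.5% and 32.5%, and the Has3 share was 40.4% and 57.6%, so that Has3 in place of Has1 held the largest share with corticosterone. The summed level of the synthases was 32.9 ± 8.12 and 22.6 ± 5.71 per kilobase, with overlapping libraries and a two-sided exact permutation p of 0.3. With the length of all exons it was 27.6 ± 5.88 and 15.9 ± 4.14, with libraries that did not overlap and a p of 0.1 in the same test. With 3 libraries against 3 the smallest p this test can give is 0.1.

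**Figure D2:**
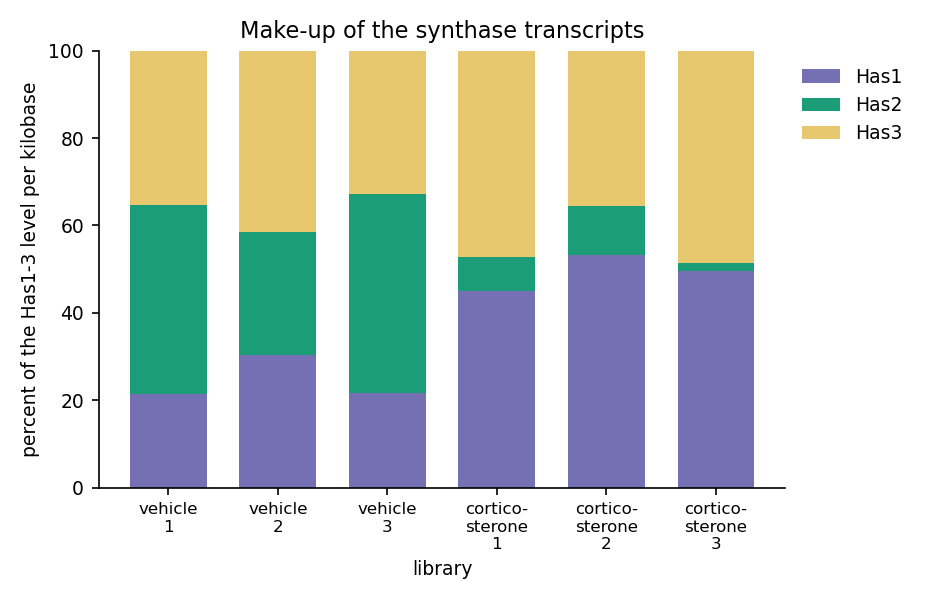
Percent of the summed Has1, Has2 and Has3 level per kilobase held by each synthase, with 1 bar per library. Has2 holds 28.1% to 45.7% of it with vehicle against 1.88% to 11.1% with corticosterone.

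The changes of the synthases were also set against each other within each library. The log2 ratio of Has2 to Has1 changed by -3.47 with corticosterone, from a mean of 1.62 to -1.85. For Has2 against Has3 it changed by -2.72, from -0.41 to -3.13. In both comparisons the groups did not overlap, and the exact permutation p was 0.1, the smallest that this design allows (0.1 after adjustment over 3 such ratios).

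The supply of the UDP-sugars was followed in 12 genes. Of these, 2 were higher and 2 lower at an adjusted p under 0.05, none past the threshold, and the median log2 fold change was 0.02. Uap1, which makes UDP-N-acetylglucosamine, rose from 980.5 ± 62.6 to 1212 ± 83.6 (log2 fold change 0.31, adjusted p = 0.00062). Gfpt1, the entry enzyme of the hexosamine pathway, fell from 3763 ± 63.5 to 3110 ± 200.5 (log2 fold change -0.28, adjusted p = 8.2e-05). Pgm3, a later enzyme of that pathway, fell by 0.28 on the log2 scale (adjusted p = 0.023), and Pgm2, a phosphopentomutase, rose by 0.22 (adjusted p = 0.0070). DESeq2 did not call Pgm3 (adjusted p = 0.055). Each of these 4 calls was lost in 3 to 5 of the 6 fits without 1 library. Ugdh, which makes UDP-glucuronic acid, was at 1886 ± 103 and 1917 ± 30.8, with an interval of -0.08 to 0.13 for its log2 fold change.

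Among the enzymes that cut hyaluronan, the surface protein Tmem2 was at 49.8% of its vehicle mean with corticosterone, while Hyal1 and Hyal2 did not pass the test. TMEM2 is a membrane-anchored protein described in mouse as a hyaluronidase of the cell surface. Its gene (ENSMUSG00000024754) lies on chromosome 19 at 21778342-21858360 on the plus strand. Normalized counts were 3346, 3672 and 3727 with vehicle and 1752, 1831 and 1768 with corticosterone. The treated libraries lay close together and far under the vehicle libraries. The means were 3582 ± 206 and 1784 ± 42.1, and the log2 fold change was -1.004 (SE 0.0491, interval -1.11 to -0.90, adjusted p = 1.2e-14). Its size sits on the threshold of 1, and over the fits without 1 library it ran from -1.05 to -0.97. The adjusted p was at most 0.0021 in those 6 fits.

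Hyal2, a lipid-anchored surface enzyme that cuts long chains, was at 641, 597 and 638 with vehicle and 595, 609 and 565 with corticosterone. The groups overlapped, and the interval of its log2 fold change was -0.22 to 0.05 (adjusted p = 0.50). Hyal1, the acid enzyme of the lysosome, was at 64.1, 88.0 and 79.6 with vehicle and 57.8, 66.3 and 60.1 with corticosterone (log2 fold change -0.32, interval -0.71 to 0.08, adjusted p = 0.32). The Hyal1 value is uncertain, because 50.7% of its 31-base stretches also occur in other genes, mainly Naa80, which overlaps it on the same strand. Both genes lie next to each other on chromosome 9, Hyal2 at 107567945-107572779 and Hyal1 at 107576927-107581710, on the plus strand.

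Of the further genes of hyaluronan breakdown, 6 of the 8 listed had a row, and 1 was called. Cemip, a secreted protein needed for hyaluronan depolymerization in fibroblasts and a paralog of Tmem2, had counts of 10497, 10387 and 9534 with vehicle and 19842, 19721 and 20502 with corticosterone. All treated libraries were far above all vehicle libraries. The means were 10139 ± 527 and 20022 ± 420.1 and the log2 fold change was 0.98 (SE 0.0421, interval 0.90 to 1.07, adjusted p = 7.1e-16), just short of the threshold. The log2 ratio of Cemip to Tmem2, also without division by length, was 1.501 ± 0.147 with vehicle and 3.49 ± 0.0545 with corticosterone. This was a shift of 1.99 with an exact permutation p of 0.1. Per kilobase, Cemip went from 1426 to 2816 while Tmem2 went from 537 to 268. The lysosomal enzymes Gusb (log2 fold change 0.13, adjusted p = 0.051) and Hexa (-0.14, adjusted p = 0.055) did not pass in limma, and both passed in edgeR (adjusted p = 0.032 and 0.047). Hyal3 had at most 3 reads in any library. Hyal4 and Spam1 were not analysed here.

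Cd44, the main surface receptor of hyaluronan, had the highest level per kilobase of the 10 genes in both groups, and fell to 67.4% of its vehicle mean. It lies on chromosome 2 at 102811141-102901665 on the minus strand (ENSMUSG00000005087). Its normalized counts were 4100, 3952 and 3973 with vehicle and 2679, 2827 and 2602 with corticosterone. The spread within either group was small beside the gap between them. The means were 4008 ± 79.8 and 2703 ± 115, with a log2 fold change of -0.57 (SE 0.0453, interval -0.66 to -0.48, adjusted p = 1.9e-10). In each fit without 1 library it remained called (adjusted p at most 0.0039). The gene has 8 coding transcripts in the annotation, and counts per gene do not separate the standard form from the variant forms.

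Hmmr, whose product RHAMM binds hyaluronan at the surface and microtubules of the spindle inside dividing cells, was at 83.6% of its vehicle mean. It lies on chromosome 11 at 40701395-40733422 on the minus strand (ENSMUSG00000020330). Normalized counts were 1176, 1125 and 1146 with vehicle and 938, 937 and 1007 with corticosterone. The groups did not overlap, and the log2 fold change was -0.26 (SE 0.0566, interval -0.38 to -0.14, adjusted p = 0.0013). Of 20 mitotic genes listed beside it, 13 were lower at an adjusted p under 0.05 and 0 higher, with a median of -0.22. Over all genes tested, 8.64% were lower and 8.95% higher by the same rule. The list was chosen with earlier results of these data known. None of the 20 was higher at an unadjusted p under 0.05, by edgeR or by DESeq2, and edgeR called 13 and DESeq2 12 of them lower. The largest changes were those of Cdc20, an activator of the anaphase-promoting complex (-0.37), the kinase Plk1 (-0.36), and the spindle and kinetochore proteins Nusap1 and Cenpf (both -0.33). The change of Hmmr lay within the range of this list. Without 1 library Cdc20 lost its call in 5 of the 6 fits, Plk1 in 4 and Nusap1 in 2, while Hmmr and Cenpf kept theirs in all 6.

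**Figure D3:**
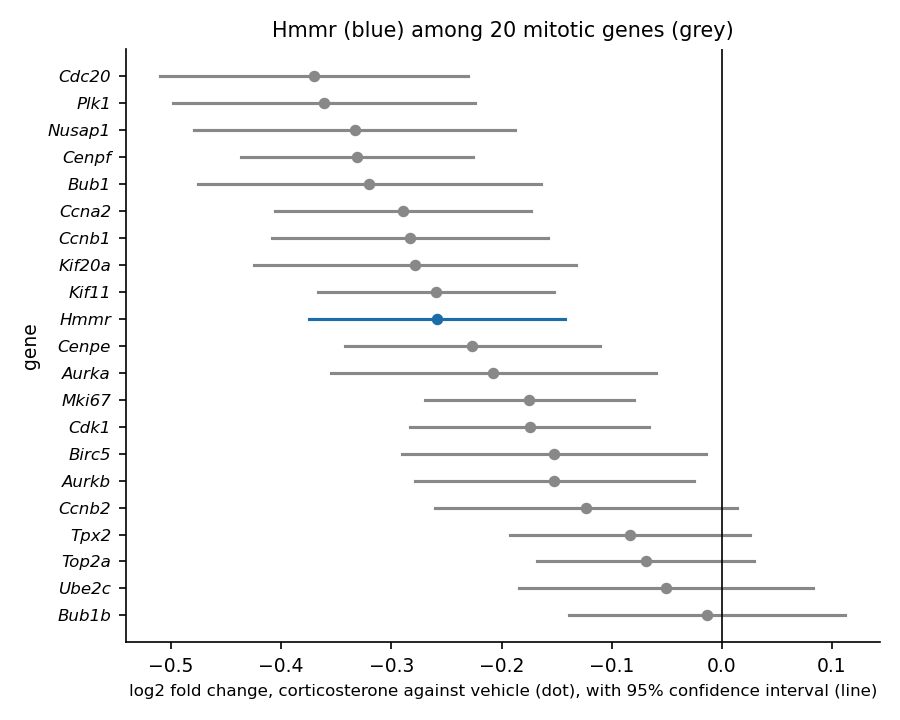
Log2 fold changes of Hmmr (blue) and 20 mitotic genes (grey), corticosterone against vehicle, as dots with 95% confidence intervals. All dots lie below 0, and Hmmr at -0.26 lies near the median of -0.22.

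The promoter of Hmmr is shown because CCAAT boxes are a common feature of promoters of mitotic genes. In the 250 bases before the start of the RefSeq transcript (GRCm38.p6, chr11:40733438-40733687, minus strand, 5′ to 3′), capitals mark CCAAT read on the other strand:
Hmmr: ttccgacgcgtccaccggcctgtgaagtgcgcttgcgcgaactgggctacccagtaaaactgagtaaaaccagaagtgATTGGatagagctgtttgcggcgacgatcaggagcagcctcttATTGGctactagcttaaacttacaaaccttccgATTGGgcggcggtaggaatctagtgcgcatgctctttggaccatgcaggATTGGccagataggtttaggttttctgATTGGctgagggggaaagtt
The letters occurred 5 times in this window, first at 172 bases and last at 20 bases before the start. Searched on both strands from 250 bases before to 50 after each start, CCAAT was found in 37.4% of 32851 mouse promoters, in 14 of 16 mitotic genes with a promoter in the RefSeq table and in 5 of the 7 members with one. The cell cycle letters TTTGAA were found in 17.9% of all promoters, in 11 of the 16 and in 2 of the 7, Hmmr and Has1. These are matches of letters and show no binding.

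Tnfaip6 encodes TSG-6, a secreted protein with a hyaluronan-binding link module that transfers heavy chains of inter-alpha-inhibitor onto the polymer and is induced by inflammatory signals. It fell to 53.8% of its vehicle mean. The gene lies on chromosome 2 at 52038009-52056686 on the plus strand (ENSMUSG00000053475). Its normalized counts were 76.2, 77.2 and 68.3 with vehicle and 28.9, 43.1 and 47.3 with corticosterone, from 27 to 100 reads per library. The highest treated library was under the lowest vehicle library. The means were 73.9 ± 4.89 and 39.8 ± 9.65, with a log2 fold change of -0.90 (SE 0.224, interval -1.37 to -0.44, adjusted p = 0.0041). The call was lost without vehicle library 1, 2 or 3 (adjusted p = 0.109, 0.116 and 0.091) and without corticosterone library 1 or 2 (0.052 and 0.074). The log2 fold change in the 6 fits without 1 library ran from -1.04 to -0.70.

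The promoter of Tnfaip6 is shown for its AP-1 letters, a motif of genes that respond to inflammatory signals. The stretch that ends before the annotated starts of both RefSeq and GENCODE (GRCm38.p6, chr2:52037863-52038008, plus strand, 5′ to 3′) has them in capitals:
Tnfaip6: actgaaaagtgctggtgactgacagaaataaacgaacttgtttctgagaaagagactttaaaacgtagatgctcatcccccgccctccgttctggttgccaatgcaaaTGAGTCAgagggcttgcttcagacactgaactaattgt
TGANTCA, read on both strands, occurred in 7.81% of the 32851 promoters and in 1 of the 7 members with a promoter, Tnfaip6. Outside the members it was also found in Itih2 and Ezr, both higher with corticosterone (log2 fold change 3.00 and 0.83). The letters thus occurred in genes that fell and in genes that rose. The full glucocorticoid response element, a palindrome with a 3-base gap, was in 0.475% of all promoters and in 0 of the 7, and the NF-kB motif was in 0.411% and in 0 of the 7. The 6-letter piece AGAACA was in 19.0% of promoters and in 1 of the 7, Has1, and outside the members also in Itih2. No match says only that these letters are not in this window. Has2, Has3 and Tmem2 had no entry in the promoter table.

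Vcan, the large proteoglycan that binds hyaluronan through its amino-terminal domain, was at 862, 886 and 931 with vehicle and 1030, 991 and 870 with corticosterone. The groups overlapped, and the log2 fold change of 0.11 had an interval of -0.03 to 0.24 (adjusted p = 0.33). It lies on chromosome 13 at 89655312-89742509 on the minus strand, and its 8 coding transcripts were not separated by the counts. Per kilobase it stood at 71.9 ± 2.82 with vehicle and 77.5 ± 6.71 with corticosterone.

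Of 6 proteases that cleave versican, 2 were higher and 1 lower at an adjusted p under 0.05. Adamts4, an aggrecanase, had counts of 1237, 1432 and 1445 with vehicle and 606, 694 and 603 with corticosterone. All treated libraries were under all vehicle libraries. Its log2 fold change was -1.11 (SE 0.0687, adjusted p = 1.3e-12), past the threshold. Adamts5 rose by 0.22 (adjusted p = 0.032) and Adamts1 by 0.18 (adjusted p = 0.013), but in both the libraries of the groups overlapped and each call was lost in 5 of the 6 fits without 1 library. Scaling to the same total also ended both calls, quantile normalization ended that of Adamts1 (0.08, adjusted p = 0.39), and DESeq2 that of Adamts5 (adjusted p = 0.074).

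Hyalectans, link proteins and proteins that crosslink hyaluronan formed the list with Itih2. Of 17 listed genes, 14 had a row, 4 were higher and 2 lower at an adjusted p under 0.05, and 3 of the higher and 1 of the lower passed the threshold. Over all genes 2.98% passed it in either direction. Itih2, which encodes a heavy chain of inter-alpha-inhibitor, had counts of 69.7, 73.3 and 46.5 with vehicle and 474, 484 and 550.1 with corticosterone. Every treated library was far above every vehicle library. The means were 63.2 ± 14.5 and 502.7 ± 41.3, and the log2 fold change was 3.00 (SE 0.14, interval 2.71 to 3.28, adjusted p = 4.0e-15). The heavy chain genes Itih3 (22.5 ± 7.20 to 49.3 ± 10.8, log2 fold change 1.12, adjusted p = 0.0075) and Itih5 (1.72 ± 1.57 to 11.8 ± 2.38, log2 fold change 2.45, adjusted p = 0.0033) were also higher, Itih5 from 0 to 13 reads per library. The Itih3 call was lost in all 6 fits without 1 library (adjusted p up to 0.162), and that of Itih5 without vehicle library 3 or any 1 of the corticosterone libraries (up to 0.117). Itih4 had 1 to 4 reads per library, and Itih1 was not analysed here. Ambp, which encodes the light chain of inter-alpha-inhibitor, had 0 to 3 reads per library. Whether the assembled protein was present was not tested.

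Hapln1, a link protein that locks proteoglycans onto hyaluronan, fell from 28 reads over the vehicle libraries to 3 over the corticosterone libraries, 1 in each. Corrected for depth the vehicle level was 6.998 times the treated level, with a counting interval of 2.16 to 36.0, and the log2 fold change was -1.998 (adjusted p = 0.014). Its call was lost in 5 of the 6 fits without 1 library, the exception being that without vehicle library 1. The remaining 2 calls of the list were chosen for naming after their values were seen. Hapln4, another link protein, fell from 198 ± 8.94 to 121 ± 10.7 (log2 fold change -0.70, adjusted p = 9.3e-05). Ptx3, a pentraxin that crosslinks hyaluronan with TSG-6, rose from 1800 ± 65.3 to 2193 ± 61.9 (log2 fold change 0.28, adjusted p = 7.8e-05).

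**Figure D4:**
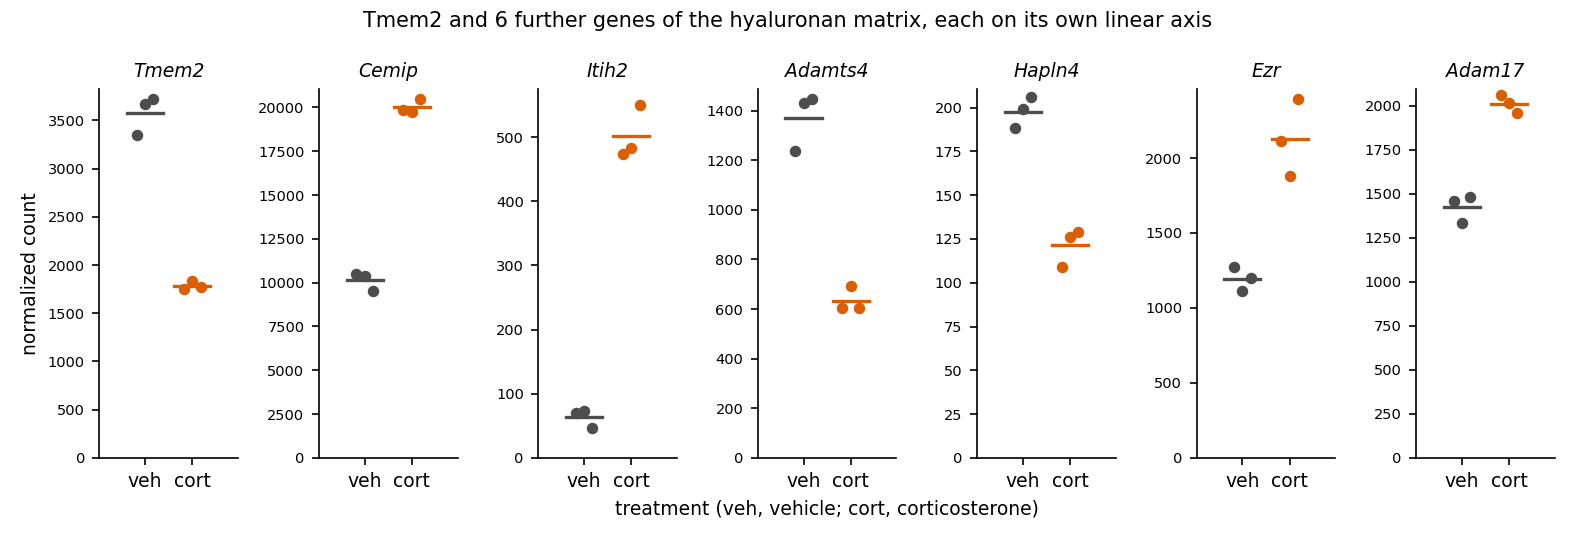
Normalized counts of Tmem2, Cemip, Itih2, Adamts4, Hapln4, Ezr and Adam17, each on its own linear axis from 0, with 1 dot per library and a line at the mean of 3. In each gene the vehicle and corticosterone libraries do not overlap, with Tmem2, Adamts4 and Hapln4 lower and Cemip, Itih2, Ezr and Adam17 higher under corticosterone.

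Of 8 genes that shed CD44 or tie it to the cytoskeleton, 4 were higher and 1 lower at an adjusted p under 0.05, none past the threshold. Ezr, whose product ezrin links CD44 to actin, had counts of 1273, 1111 and 1199 with vehicle and 2111, 1881 and 2396 with corticosterone. The groups were far apart, with a log2 fold change of 0.83 (SE 0.0672, adjusted p = 2.8e-10). Adam17, a membrane protease that releases the CD44 ectodomain, rose from 1425 ± 80.5 to 2013 ± 50.3 (log2 fold change 0.50, adjusted p = 3.5e-08). The membrane protease Mmp14 rose by 0.22 (adjusted p = 0.0021), a call lost in 5 of the 6 fits without 1 library, and the scaffold Iqgap1 by 0.17 (adjusted p = 0.0036), lost in 1 and with quantile normalization (0.09, adjusted p = 0.14). Nf2, whose product merlin competes with ezrin for CD44, fell by 0.15 (adjusted p = 0.022), a call lost in 4 of those fits, and was named after its value was seen. The related linkers Rdx and Msn and the protease Adam10 did not pass the test.

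Of 6 other hyaluronan receptors, 0 were called in either direction by limma, edgeR or DESeq2. At an unadjusted p under 0.05, 1 was higher and 1 was lower in limma. These were Tlr4 (278 ± 9.10 to 317 ± 16.7, adjusted p = 0.16) and Tlr2 (322 ± 8.47 to 282 ± 14.7, adjusted p = 0.15), and both were named after their values were seen. Layn, Stab1 and Stab2 did not pass the test, and Lyve1 had at most 2 reads in any library.

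**Figure D5:**
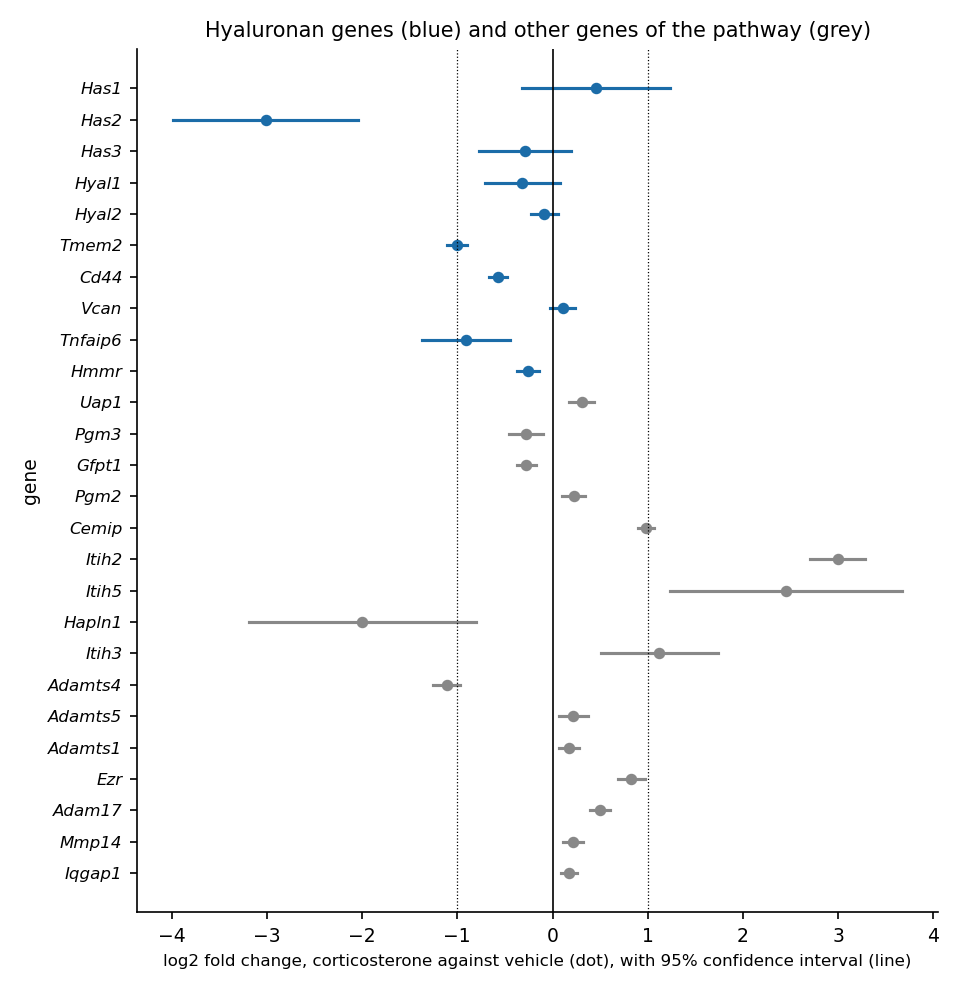
Log2 fold changes of the 10 hyaluronan genes (blue) and of the leading called genes of the surrounding lists (grey), corticosterone against vehicle, as dots with 95% confidence intervals and dotted lines at -1 and 1. Genes of the mitotic list are not drawn here. Has2 at -3.01 and Itih2 at 3.00 lie farthest from 0 among the genes drawn, and Tmem2 at -1.004 and Cemip at 0.98 lie on either dotted line.

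Over all 72 genes of the surrounding lists that had a row, 13 were higher, 19 lower and 40 not called at an adjusted p under 0.05, where the mitotic list gave 13 of the 19 lower. On the scale of normalized count per kilobase, the order of the members with vehicle was Cd44 (714), Tmem2 (537), Hmmr (295), Hyal2 (211), Vcan (71.9), Tnfaip6 (43.2) and Hyal1 (25.6), followed by the synthases. From Cd44 down to Hyal1 no neighbours overlapped in the vehicle libraries. With corticosterone the order of these was the same, with Cd44 at 481, Tmem2 at 268, Hmmr at 247, Hyal2 at 199, Vcan at 77.5, Tnfaip6 at 23.3 and Hyal1 at 20.4. There Tnfaip6 and Hyal1 overlapped, as did Has1 and Has3. Using the length of all exons in place of the longest transcript put Hyal2 just above Hmmr and Has3 (9.04) above Has1 (5.16) with corticosterone, and left Has2 last.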

How the data were processed

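RNA of 6 cultures was sequenced commercially on an Illumina platform after preparation with a NEBNext Ultra RNA kit. The table the authors deposited is called FPKM, but its signal values rise in equal steps within a library whatever the gene length. Dividing by that step gave whole reads for 100% of values (tolerance 0.01 reads), so the values are read counts over a size factor. The fixed design allowed for this unit. The processing notes name mm10, and the authors tested with DESeq2. The aligner, counter, annotation and use of strand are not given in the sources used here.

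Gene symbols (23983 of 24016 IDs) and positions came from GENCODE on GRCm38, promoters from RefSeq on GRCm38.p6. No proteins were used here. The main test was limma 3.58.1 (lmFit, eBayes with variance trend, two-sided) in R 4.3.3 on log2(normalized count + 1), without a filter, with Benjamini-Hochberg adjustment over all 24016 genes. Fold changes are on that scale, where the added 1 draws those of low genes toward 0. The result need not be the smallest, since Has2 was at -3.01 there, -3.31 with a pseudocount of 0.1, -2.76 in edgeR and -2.80 in DESeq2. Single values were compared with exact permutation tests. No library pair was a duplicate (chi-square per degree of freedom at least 3.38).

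The members, lists and alternatives were chosen with earlier results of these data known. All members were named, and of each list the genes with an adjusted p under 0.05, at most the 4 with the largest absolute change, and any past the threshold. Exceptions are marked. Alternatives were pseudocounts of 0.1 and 0.5, filters at means of 1 and 10, the replicate block, no variance trend, 3 scalings, edgeR 4.0.16 and DESeq2 1.42.0 on whole reads, both repeated with the block, all exon lengths, and leaving out each library. The fits were tested on simulated data.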

Additional observations from a re-analysis of the deposited data

How the results depend on the processing

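Without the variance trend, the genes at an adjusted p under 0.05 fell from 4224 to 1670, the hyaluronan genes from 5 to 2 (Tmem2 and Cd44), and the genes of the surrounding lists from 32 to 9. Leaving out 1 library at a time gave 2220 to 2743 genes, 3 to 5 hyaluronan genes, 12 to 19 list genes and 229 to 285 genes past the threshold downward, against 362, with fewer samples in each fit. For 43 named genes, 667 of 808 values over all alternatives kept their direction and side of the threshold, 126 lost the call, 13 gained one (Gusb and Hexa), and 2 turned direction. Both were of Ugdh, which was not called, at -0.017 with scaling to the same total and -0.0027 with quantile normalization, against 0.02. Hapln1 got no value with edgeR, DESeq2 or a mean of at least 10, and Itih5 none with edgeR or that mean, since their reads were too few. Quantile normalization gave 46.0% of calls higher, against 50.9%. With the length of all exons the Has2 share of the synthase level was 46.1% and 9.87%, against 39.0% and 6.93%, and the summed level had an exact permutation p of 0.1 in place of 0.3.

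With the replicate number as a block, limma called 4481 genes, 361 past the threshold upward and 375 downward, and 5 of the 10 hyaluronan genes. Without the block limma called 4224 genes. In edgeR the block gave 4606 genes, against 4327 without it, and in DESeq2 3634 were called without it. DESeq2 with the block called 2790 genes, 198 past the threshold downward, and 4 of the 10, since Tnfaip6 had an adjusted p of 0.055. The labels do not say that numbers mark a shared culture. Deviations of same-numbered libraries correlated at 0.068, 0.088 and 0.017 over 10558 genes, each the highest value of that vehicle library. Differently numbered libraries gave -0.093 to 0.029, and corticosterone library 3 correlated better with vehicle library 1 (0.029). These small values do not decide whether the numbers mark pairs. The main fit did not use pairs. Has1, Has2, Has3, Hyal1 and Tnfaip6 had at most 132 reads in any library, which limits the precision of their values.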

Other observations

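Has2os, a noncoding RNA gene transcribed from the strand opposite to Has2, was looked at after its values were seen. It spans 56689944-56778399 of chromosome 15 on the plus strand, and some of its exons overlap those of Has2. Its normalized counts were 12.97, 10.8 and 21.7 with vehicle and 1.07, 7.73 and 1.28 with corticosterone, from 16, 14 and 21 reads against 1, 7 and 1. Every treated library was under every vehicle library, with means of 15.2 ± 5.78 and 3.36 ± 3.79 (SD, n = 3) and a limma log2 fold change of -2.17 (SE 0.575, interval -3.35 to -0.98, adjusted p = 0.0075). The call was lost in 5 of the 6 fits without 1 library (adjusted p up to 0.212), the exception being that without corticosterone library 2. Of the 31-base stretches of Has2, 3.33% also occur in other genes, mainly Has2os. Of those of Has2os, 7.76% also occur in other genes, mainly Has2. Whether the counting used the strand is not given in the sources used here, so reads from the overlap cannot be told apart between the genes.

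Chondrocyte markers summed to between 3557 and 3964 normalized counts with vehicle and between 2999 and 3023 with corticosterone. Of the 4 with a row, Col2a1, a cartilage collagen, fell (log2 fold change -0.80, adjusted p = 8.3e-09), Sox9, the chondrocyte transcription factor, fell by 0.16 on the log2 scale (adjusted p = 0.026, lost in all 6 fits without 1 library), Col10a1, the collagen of hypertrophic cartilage, rose (0.72, adjusted p = 0.0057, lost in 5 of those 6), and Comp was at 3 to 18 reads. Hapln1 is also a cartilage gene, and the part of these shifts in its value was not tested. The endothelial markers summed to 22.8 to 47.8 with vehicle and 39.8 to 53.7 with corticosterone, and the skeletal muscle markers to 30.9 to 37.2 and 39.8 to 42.8. The macrophage and osteoclast markers summed to 1936 to 2106 and 1556 to 1617, most of it Ctsk, which was called lower (means of 1852 and 1438).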
